A study of Mus musculus with 2 samples.

Results

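To follow miRNAs that are widely used as loading references for serum, 8 mature miRNAs were taken from the 1847 listed for serum extracellular vesicles (EVs), the membrane particles that cells release into blood. They are the 5p and 3p arms of 4 hairpins, miR-191, miR-425, miR-423 and miR-185. They were chosen by name and not by a cut on their values, though with earlier results of these data known. All 8 were found in both libraries. One EV library came from control male mice, whose genotype the labels give as WT and the methods of the study as IR flox/flox without Cre. The other came from iFIRKO male mice (Adipoq-CreERT2; Insr flox/flox), in which the insulin receptor is deleted in the cells that express the adiponectin promoter, the adipocytes, once tamoxifen is given. Both groups were 7 weeks old, received tamoxifen by injection (100 mg/kg on each of 5 days), control mice included, and serum was taken 3 days after the final injection. They are called the control and the iFIRKO library here, after their labels. Serum of several mice was pooled for sequencing, and each group has 1 library, so no spread between animals was measured and no test between genotypes is possible.

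miRNAs are cut from a hairpin precursor whose stem supplies a 5p and a 3p arm. One arm is usually retained by Argonaute as the guide strand, while the other is mostly degraded, and the guide pairs with target mRNAs mainly through its seed, bases 2 to 8. miR-191 and miR-425 are transcribed together and are expressed in most tissues and in blood cells. miR-191-5p, miR-425-5p and miR-423-5p are often chosen to normalize miRNA measurements of serum or plasma, because their levels tend to vary little between individuals, and miR-185 is likewise expressed in most tissues.

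The mature sequences are shown to identify the arms and their seeds. They are RefSeq sequences on GRCm38.p6, written 5′ to 3′ with the seed in capitals, and 7 of the 8 arms were matched.
mmu-miR-191-5p: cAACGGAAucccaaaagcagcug
mmu-miR-191-3p: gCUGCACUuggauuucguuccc
mmu-miR-425-5p: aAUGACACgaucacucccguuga
mmu-miR-425-3p: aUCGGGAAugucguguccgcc
mmu-miR-423-5p: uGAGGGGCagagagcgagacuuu
mmu-miR-423-3p: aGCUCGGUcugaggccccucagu
mmu-miR-185-3p: aGGGGCUGgcuuuccucuggu
The 7 seeds differ from one another, so the arms form no seed family, although miR-191 and miR-425 are neighbours. The 7 sequences are 21 to 23 nucleotides long. Their GC content ran from 47.8% (miR-425-5p) to 65.2% (miR-423-3p), against a median of 52.2% over the 1592 listed miRNAs with a RefSeq sequence. Among those 1592 miRNAs, 4 of the 7 seeds occurred in no other miRNA, and 3 were shared with 1 other miRNA each, shown here with the shared seed in capitals.
miR-489-3p (seed of miR-425-5p): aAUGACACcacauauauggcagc
miR-6921-5p (seed of miR-423-5p): uGAGGGGCaugagguaggaagc
miR-7048-5p (seed of miR-185-3p): cGGGGCUGagaggugaggaagc
These partners were rare in both libraries. miR-489-3p had 19 counts in the control library and 26 in the iFIRKO library, miR-6921-5p had 31 and 41, and miR-7048-5p had 26 and 31. Among the miRNAs with a RefSeq sequence, nearly all counts that carry the seed of miR-425-5p or of miR-423-5p therefore belonged to these members themselves.

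The hairpins lie at 3 loci. The Mir191 hairpin lies at chr9:108568319-108568392 on the plus strand (GRCm38), and Mir425 follows on the same strand at chr9:108568777-108568861, 384 bases further on. RefSeq places both inside Dalrd3 (chr9:108567484-108572773). In GENCODE M21 both overlap an exon of the long noncoding RNA gene 4833445I07Rik (chr9:108567533-108569174), and Dalrd3 starts at 108569886, which is 1024 bases after the end of Mir425. The host of the pair thus depends on the annotation. GENCODE also lists a miRNA gene on the opposite strand of Mir191, Gm24083 (chr9:108568295-108568414). Mir423 (chr11:77078064-77078172, minus strand) lies in an intron of Nsrp1, which encodes a splicing regulator of nuclear speckles. Mir185 (chr16:18327401-18327465, minus strand) lies in an intron of Tango2, 38154 bases from Dgcr8, which encodes the RNA-binding partner of Drosha in hairpin cleavage.

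Both deposited tables held whole counts divided by 1 constant, and that constant was taken as the depth, 3817902 counts for the control library and 2233498 for the iFIRKO library (1.71-fold apart). Levels are given below as recovered counts, and as CPM, the counts per 1000000 of the depth. A read covers a whole miRNA, so CPM needs no correction for length, but ligation efficiency differs between sequences and levels of different miRNAs are not molar amounts. Intervals are 95% intervals from counting error only and cover no difference between animals, pools or library preparations. Every direction follows the labels as given. No miRNA reports the deletion of the receptor, so the labels were not checked against it, and the study's own account of its sequencing gives reason to doubt that the 2 tables are labelled the right way round. If the labels were exchanged, every ratio and difference between the libraries below would be inverted, while their sizes, the levels within a library and the arm shares would stand.

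miR-191-5p stood far above the other arms. It had 108300 counts in the control library (28366 CPM, Wilson interval 28200 to 28533) and 78614 in the iFIRKO library (35198 CPM, 34957 to 35440). It ranked 5th of 1847 miRNAs in the control library and 3rd in the iFIRKO library. With the 7 other arms it held 3.21% of the control depth and 3.94% of the iFIRKO depth, and its own share of the depth was 2.84% and 3.52%, so the summed level of the 8 arms is mostly that of miR-191-5p.

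The other 5p arms formed a group of like level. miR-425-5p had 4164 counts (1091 CPM) in the control library and 2725 counts (1220 CPM) in the iFIRKO library. miR-423-5p had 3582 counts (938 CPM) and 2649 counts (1186 CPM). miR-185-5p had 4215 counts (1104 CPM) and 2325 counts (1041 CPM). Their order was not the same in the libraries. In the control library miR-185-5p and miR-425-5p had overlapping intervals (1071 to 1138 CPM and 1058 to 1124 CPM) and miR-423-5p lay below them (908 to 969 CPM). In the iFIRKO library miR-425-5p and miR-423-5p overlapped (1175 to 1267 CPM and 1142 to 1232 CPM), and miR-185-5p lay below them (999.5 to 1084 CPM). miR-185-5p, highest of the 3 in the control library, was thus lowest of the 3 in the iFIRKO library, beyond counting error against miR-423-5p on either side.

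The 3p arms kept one order. miR-423-3p had 1103 counts (289 CPM) in the control library and 847 counts (379 CPM) in the iFIRKO library. miR-425-3p had 712 counts (186.5 CPM) and 537 counts (240 CPM), and miR-191-3p had 320 counts (83.8 CPM) and 241 counts (108 CPM). miR-185-3p was the rarest, with 61 counts (15.98 CPM, interval 12.4 to 20.5) and 41 counts (18.4 CPM, 13.5 to 24.9). In both libraries the order was miR-423-3p, miR-425-3p, miR-191-3p and miR-185-3p, and no neighbouring intervals overlapped. The most abundant 5p arm, miR-191-5p, thus had the second rarest 3p arm. miR-185-3p ranked 606th in the control library and 1002nd in the iFIRKO library although its CPM was close in both.

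**Figure D1:**
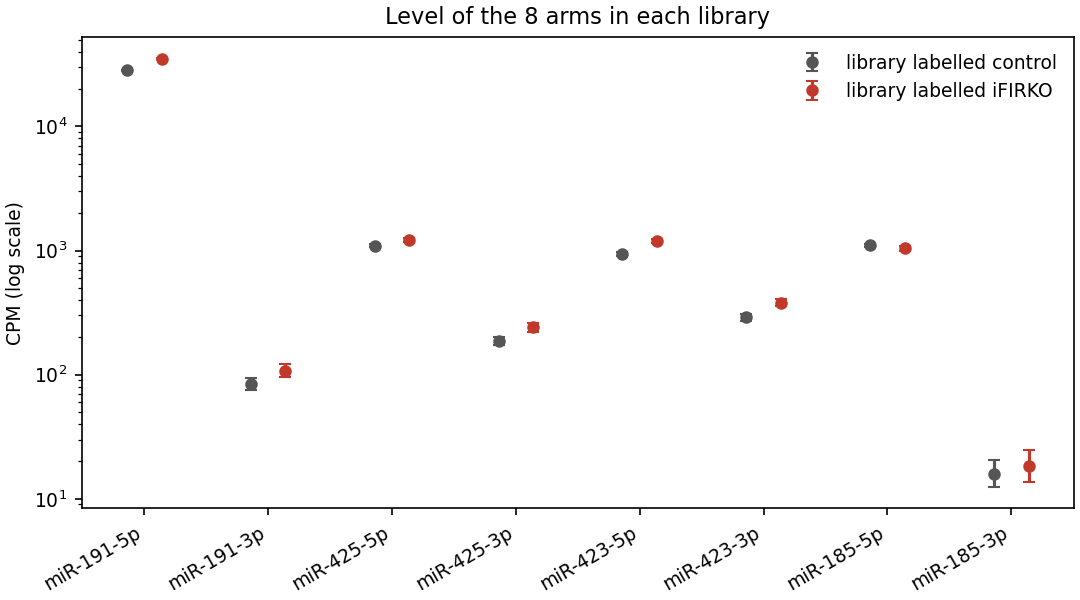
CPM of the 8 arms on a log axis in the library labelled control (grey) and the library labelled iFIRKO (red), 1 library each, with 95% Wilson intervals from counting error. miR-191-5p lies over 25-fold above the next arm in both libraries, and only miR-185-5p is lower in the iFIRKO library than in the control library.

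To ask how far these miRNAs differed between the libraries, the ratio of the iFIRKO to the control level was computed. None of the 8 passed the 1.5-fold threshold used in the study, in either direction. Over all 1847 miRNAs, 66.3% were past 1.5-fold higher and 3.03% past 1.5-fold lower on the same scale. Of the 8 arms, 7 had a ratio above 1 as deposited, against 88.1% of all miRNAs, and with the trimmed mean of M-values (TMM) all 8 were below 1. The median log2 ratio was 0.32 over the 8 arms and 0.88 over all miRNAs. The latter includes 1350 miRNAs with mean counts between 10 and 100, a class that holds only 1 of the arms. When rarer miRNAs were left out and mean counts began at 100, 420 miRNAs remained, 7 of the arms among them. The median was then 0.34 over the 7 arms and 0.27 over the 420 miRNAs, so the arms had the higher median there.

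The ratios of miR-191, miR-425-3p and miR-423 lay close together. miR-191-5p had a ratio of 1.24 (95% interval 1.229 to 1.252) and miR-423-5p of 1.26 (1.20 to 1.33). The ratios of the 3p arms were 1.29 for miR-191-3p (1.08 to 1.53), 1.29 for miR-425-3p (1.15 to 1.44) and 1.31 for miR-423-3p (1.20 to 1.44). These 5 intervals overlap, so counting error does not separate the 5 arms. miR-425-5p lay below miR-191-5p and miR-423-5p, at 1.12 (1.07 to 1.17). miR-185-5p, at 0.943 (0.896 to 0.992), was the sole member with a ratio under 1. The interval of miR-185-3p (1.15, 0.754 to 1.73) covered 1 and every other member, so no difference was detectable at its depth.

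Whether an interval excludes 1 compares these 2 libraries, not the genotypes. The interval lay above 1 for 6 members and below 1 for miR-185-5p, while 62.7% and 5.13% of the 1736 miRNAs at 10 counts or more in both libraries did so. Fisher's exact test (two-sided) of recovered counts with Benjamini-Hochberg adjustment called the same numbers of members, 6 higher and 1 lower, against 60.5% higher and 4.84% lower of those 1736 miRNAs.

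**Figure D2:**
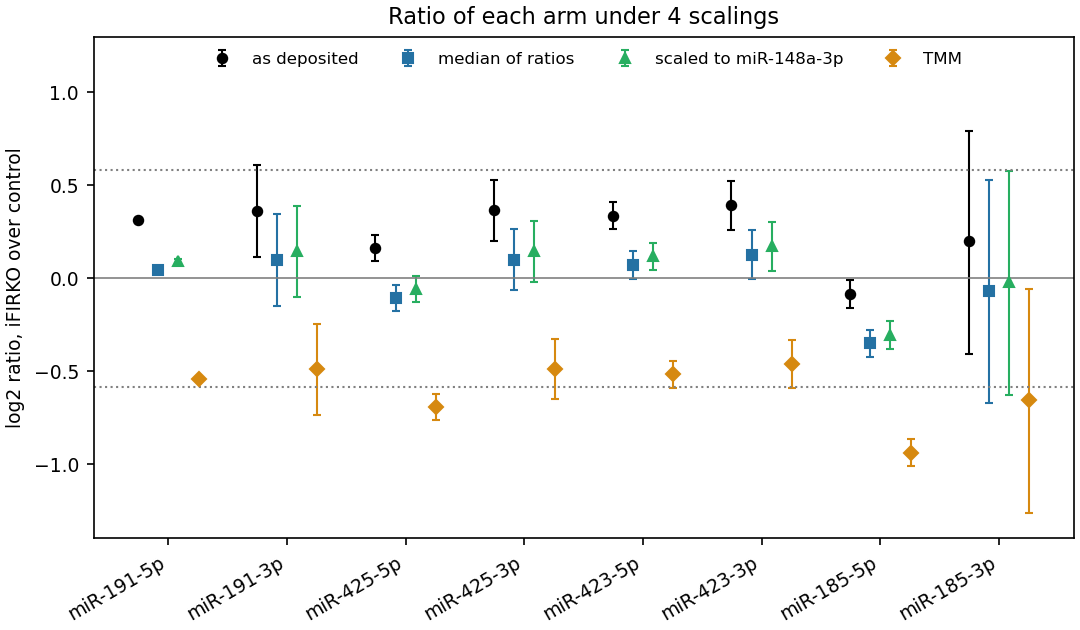
The log2 ratio of iFIRKO over control for each arm under 4 scalings, with 95% counting intervals and dotted lines at 1.5-fold. As deposited (black) no arm passes a dotted line. Both the median of ratios and miR-148a-3p as reference lower the values by less than TMM. With TMM (orange) all 8 are below 0 and 3 pass the lower line, as do 19.5% of all miRNAs.

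The directions depended on the scaling, which moves all members by 1 factor. Relative to miR-148a-3p, which the study used beside a spike-in to normalize its quantitative RT-PCR and not its sequencing, the ratio was 1.07 for miR-191-5p, 1.09 for miR-423-5p, 0.961 for miR-425-5p and 0.810 for miR-185-5p. With the median of ratios, taken over 420 miRNAs whose mean count reached 100, the same arms had ratios of 1.03, 1.05, 0.9303 and 0.784. TMM was run on all 1847 miRNAs with no abundance filter, and 1350 of them had mean counts between 10 and 100. It lowered every ratio by a factor of 1.81, to 0.686 for miR-191-5p and 0.522 for miR-185-5p. With TMM, miR-425-5p, miR-185-5p and miR-185-3p were past 1.5-fold lower, as were 19.5% of all miRNAs. Removing both miR-16-5p and miR-122-5p from the totals changed little, and the ratios then ran from 0.955 (miR-185-5p) to 1.33 (miR-423-3p). These 2 abundant miRNAs differed in opposite directions (ratios of 0.733 and 1.71), and removal of only 1 of them was not tried.

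Ratios of 2 members within a library are free of any scaling, and the 4 5p arms gave 6 such pairs. miR-191-5p exceeded miR-423-5p 30.2-fold in the control library and 29.7-fold in the iFIRKO library, a quotient of 0.982 (95% Wald interval 0.933 to 1.03), the only 1 of the 6 pairs whose interval included 1. miR-191-5p exceeded its cluster neighbour miR-425-5p 26.01-fold and 28.85-fold, a quotient of 1.11 (1.056 to 1.165). Among the 3p arms of these neighbours, miR-191-3p was 0.449 of miR-425-3p in both libraries (quotient 0.999, 0.817 to 1.22). This wider interval includes the 5p quotient of 1.11, so the counts do not separate the 3p pair from the 5p pair. A close proportion was not particular to the neighbours, since that of miR-191-5p to miR-423-5p, from another chromosome, held within counting error.

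miR-185-5p separated from each of the others. The quotient of miR-191-5p to miR-185-5p was 1.32 (1.250 to 1.385), that of miR-425-5p to miR-185-5p was 1.19 (1.11 to 1.27), and that of miR-423-5p to miR-185-5p was 1.34 (1.248 to 1.440). On the log2 scale the largest of these was a difference of 0.42 (0.32 to 0.53). The remaining pair, miR-425-5p to miR-423-5p, had a quotient of 0.885 (0.825 to 0.949). A level normalized to miR-185-5p would therefore come out 1.34 times as high in the comparison of the libraries as one normalized to miR-423-5p.

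The choice of a member as reference was carried through the whole table, as a setting chosen after the data were seen. With miR-191-5p as reference, 910 miRNAs were past 1.5-fold higher, and 6.55% of all 1847 were past 1.5-fold lower. With miR-423-5p there were 876 higher miRNAs and 6.82% were lower, with miR-425-5p 1063 and 4.76%, and with miR-185-5p 1296 and 2.65%. The geometric mean of the 4 5p arms gave 1053 higher miRNAs and 5.14% lower. Higher miRNAs outnumbered lower ones under each of these references.

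The position of the arms in the table depended on abundance, because the ratio of all miRNAs does. Mean counts of 1000 or more were reached by 118 miRNAs, for which the median log2 ratio was -0.07, and 88.1% were within 1.5-fold in either direction. Of these 118, 89.8% had a lower ratio than miR-191-5p, 91.5% than miR-423-5p, 76.3% than miR-425-5p and 46.6% than miR-185-5p. Mean counts between 100 and 1000 were found for 302 miRNAs, for which the median log2 ratio was 0.53, and 40.1% had a lower ratio than miR-191-3p, 40.4% than miR-425-3p and 42.4% than miR-423-3p. miR-185-3p belonged to the 1350 miRNAs between mean counts of 10 and 100 (median 1.01), and 7.26% of them had a lower ratio. Arms with nearly the same ratio thus lay high in the abundant class and below the middle of the rarer class.

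**Figure D3:**
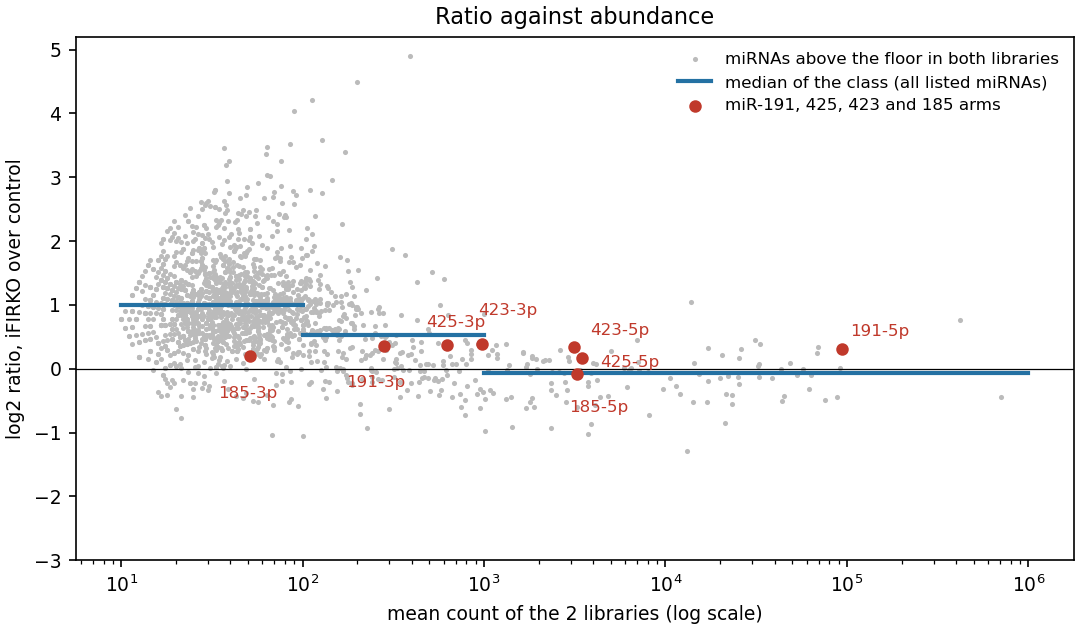
The log2 ratio of iFIRKO over control against the mean count of both libraries on a log axis, for miRNAs at 10 counts or more in both libraries (grey) and the 8 arms (red), with the median of each abundance class in blue. The arms lie between -0.08 and 0.39, while the class medians go from 1.01 to -0.07 with rising abundance.

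Arm choice was examined next, since the share of the 5p arm among the counts of both arms does not depend on scaling. For miR-191 the 5p arm made up 99.7% in both libraries (95% Wilson interval 99.67 to 99.74 in the control library and 99.65 to 99.73 in the iFIRKO library). For miR-185 it made up 98.6% (98.2 to 98.9) and 98.3% (97.7 to 98.7). miR-425 gave more of its 3p arm, with 85.4% 5p (84.4 to 86.4) and 83.5% (82.2 to 84.8). miR-423 was the most even hairpin, with 76.5% (75.2 to 77.6) and 75.8% (74.3 to 77.2). In all 4 hairpins the 5p arm was the more abundant one, and the order of the hairpins by this share was the same in both libraries.

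The log2 difference of the 5p to 3p ratio between the libraries was -0.05 for miR-191 (95% Wald interval -0.29 to 0.19), -0.05 for miR-423 (-0.20 to 0.09) and -0.29 for miR-185 (-0.86 to 0.29). For miR-425 it was -0.20 (-0.38 to -0.03), the sole interval that excluded 0, as did those of 31.1% of the 617 hairpins with both arms at 10 counts or more. The median size of the difference was 0.28 over the 73 hairpins for which each arm reached a mean count of 100, and 6 of the 73 had a smaller difference than miR-191, 7 than miR-423 and 27 than miR-425. The rarer arm had the higher ratio in all 4 hairpins, and in 55.8% of the 617.

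**Figure D4:**
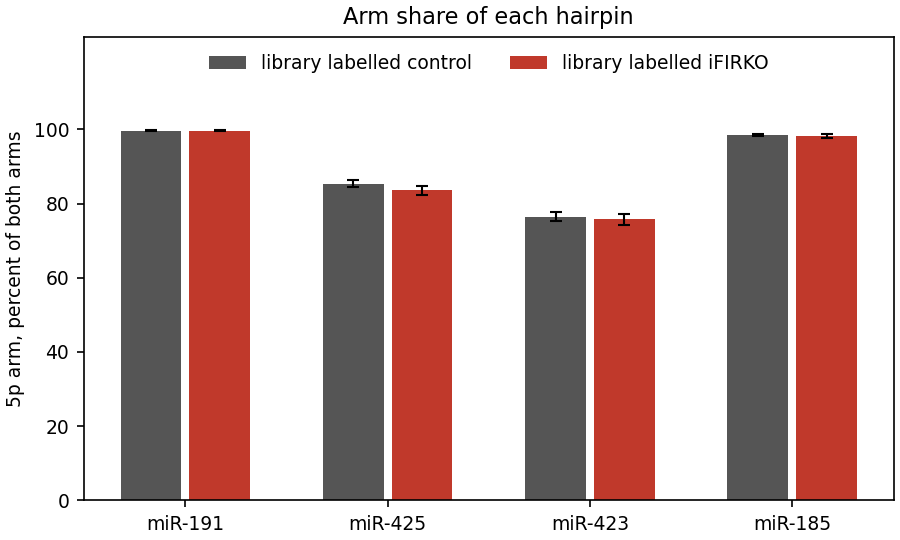
Share of the 5p arm among the counts of both arms, in percent, for each hairpin in the library labelled control (grey) and the library labelled iFIRKO (red), 1 library each, with 95% Wilson intervals. The shares go from 99.7% for miR-191 to about 76% for miR-423 and keep the same order in both libraries.

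The miRNAs nearest to each 5p arm in level were found by the distance of log2 CPM over the 2 libraries, which are only 2 points. miR-744-5p was nearest to miR-425-5p, with 4228 and 2752 counts (distance 0.03). miR-185-5p was nearest to miR-101a-3p (4305 and 2480 counts, distance 0.10), which was also second nearest to miR-425-5p (0.14). The second neighbour of miR-185-5p was miR-339-5p (3616 and 2298 counts, distance 0.22), and miR-423-5p had miR-107-3p (3459 and 2310 counts, distance 0.20) and miR-339-5p (0.21) as neighbours. The neighbours of miR-191-5p were let-7i-5p (115041 and 67542 counts, distance 0.24) and miR-486b-5p (123880 and 53082 counts, distance 0.60).

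The members were set beside 28 other miRNAs in use as references for serum or plasma. Of the 28, 11 had a ratio above 1 and 17 below 1 as deposited, with a median log2 ratio of -0.09. None was past 1.5-fold higher and 2 were past 1.5-fold lower, miR-186-5p (0.659) and miR-15b-5p (0.608). Over all 1847 miRNAs, 88.1% had a ratio above 1, 66.3% were past 1.5-fold higher and 3.03% past 1.5-fold lower. Most of the 28 had mean counts of 1000 or more. Of the 118 miRNAs at that level, 40.7% had a ratio above 1 and 88.1% were within 1.5-fold, with a median log2 ratio of -0.07. The candidates thus lay near the values of their abundance class. Ordered by distance from a ratio of 1 among all 36, miR-185-5p was 6th and miR-425-5p 12th, whereas miR-191-5p was 21st, miR-423-5p 23rd and the 3p arms of miR-191, miR-425 and miR-423 were 24th to 26th. The nearest to 1 were miR-320-3p (ratio 0.999, 0.935 to 1.07) and let-7i-5p (1.004, 0.994 to 1.01), whose intervals included 1. miR-148a-3p was 16th (1.16, 1.14 to 1.19). This order holds for the deposited scale, and another scaling would move the point from which distance is counted.

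**Figure D5:**
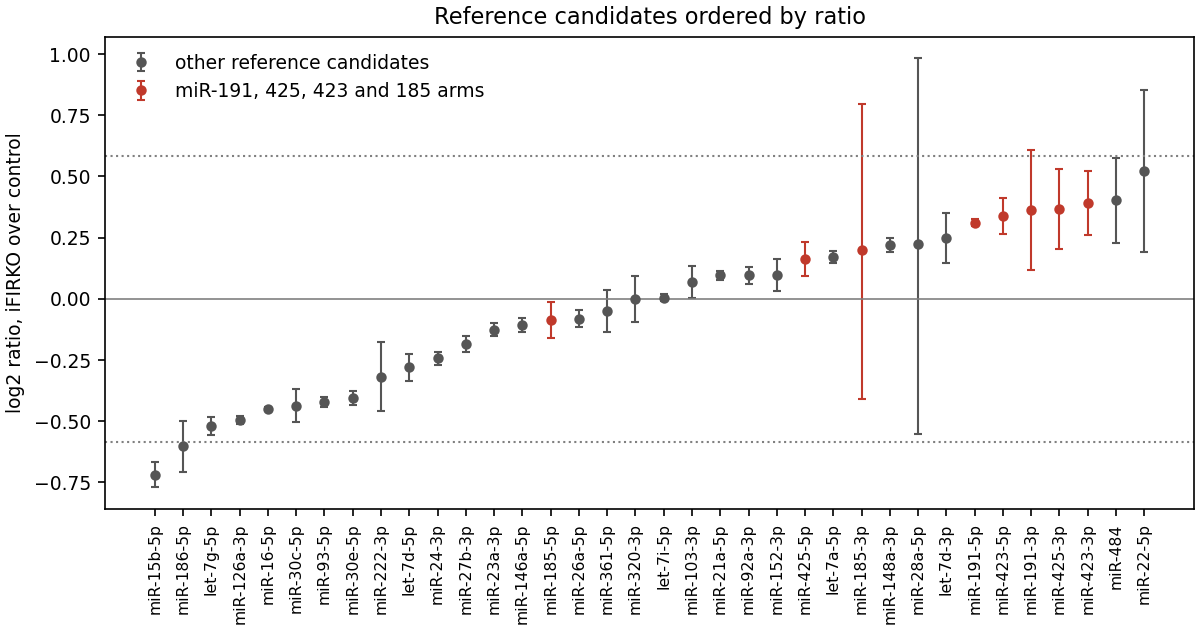
The log2 ratio of iFIRKO over control for the 8 arms (red) and 28 other reference candidates (grey), ordered by ratio on the deposited scale, with 95% counting intervals and dotted lines at 1.5-fold. Most red points lie at the upper end, from 0.16 to 0.39, and miR-185-5p lies at -0.08.

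miRNAs known from particular cells differed between the same libraries, and the doubt about the labels holds for their directions too. The 5 erythroid markers (miR-451a, both arms of miR-144 and of miR-486a) held 1.41% of the control depth and 0.798% of the iFIRKO depth. All 5 were lower in the library labelled iFIRKO, with ratios from 0.409 to 0.760. The list leaves out miR-486b-5p, which was far more abundant than miR-486a-5p (123880 and 53082 counts against 24087 and 9865) and had a ratio of 0.7325. The 2 shares therefore do not cover all of miR-486. The 4 platelet markers (miR-223-3p, both arms of miR-126a and miR-199a-3p) held 6.93% and 5.43%. miR-199a-3p was higher (1.03) and the other 3 were lower (0.684 to 0.799). miR-126a-3p, the most abundant of the 4, also stands among the 28 reference candidates. The 5 leukocyte markers held 3.39% and 3.14%, with all 5 lower (0.834 to 0.964). Among these 5, the intervals of miR-142a-5p (0.910 to 1.020) and miR-155-5p (0.781 to 1.011) included 1. Most leukocyte markers had mean counts of 1000 or more, and 40.7% of the 118 miRNAs at that level had a ratio above 1. The 4 liver markers held 12.1% and 20.2%. Most of this was miR-122-5p, with 417919 of 460346 counts in the control library and 417108 of 451011 in the iFIRKO library. All 4 were higher as deposited (1.35 to 1.71, miR-122-5p highest). The TMM factor of 1.81 exceeds these ratios, so with TMM all 4 were below 1. The 6 adipose markers held 0.202% and 0.226%, with 3 higher and 3 lower. Most of this was miR-378a-3p (ratio 1.21), with 5851 of 7699 counts in the control library and 4151 of 5044 in the iFIRKO library. miR-193a-3p (21 and 28 counts) and miR-193b-3p (27 and 23 counts), also higher, were rare. The 3 lower ones had ratios from 0.734 to 0.892, so the summed level is mostly that of miR-378a-3p. No marker was under 10 counts in either library. The ratios of 7 of the arms, from 1.12 to 1.31, lay between those of the blood cell and the liver markers, and the part of these cell types in them was not tested.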

How the data were processed

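The authors made small RNA libraries from serum EVs (QIAseq miRNA kit, NextSeq500), processed the reads with the GeneGlobe service of Qiagen and deposited 1 normalized signal per miRNA. The submitters' processing notes name mm10, and the aligner, the miRNA release and the use of molecular identifiers are not given in the sources used here. All deposited signal values (100.0%) were within 0.05 of a whole count after multiplication by 1 constant per library. The lowest value stands for a count under 10, and no member was there.

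The ratio of the 2 libraries had no pseudocount. Its 95% interval comes from the Clopper-Pearson interval of the iFIRKO share of both counts, those of levels and arm shares are Wilson intervals, and those of quotients are Wald intervals of the log. Calls at 1.5-fold follow the study. Fisher's exact test with Benjamini-Hochberg adjustment (threshold 0.05) was run on recovered counts. Scripts were tested on simulated data. Alternatives were TMM (edgeR 4.0.16, R 4.3.3), the median of ratios, miR-148a-3p or members as references, equal totals, totals without miR-16-5p and miR-122-5p, a pseudocount of 1 CPM, mean counts of at least 10 or 100, a 2-fold threshold, other call rules and 10 counts added to each arm. Python 3.11.15 and scipy 1.17.1 were used. Hairpins were placed with GENCODE M21 and RefSeq on GRCm38.

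The members, the lists of reference candidates and cell type markers and the tests were chosen with earlier results of these data known. Named are the members, miRNAs sharing their seeds, the 2 nearest in level to each 5p arm, the scalers and listed miRNAs.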

Additional observations from a re-analysis of the deposited data

How the results depend on the processing

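No paired analysis was possible because only 1 sample stands in each group. Counting intervals cover neither animals nor pools, and the depth limits miR-185-3p most.

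Without a 1.5-fold limit, 6 members were higher and 1 lower by the counting interval and by Fisher's exact test, instead of 0 and 0. Of the 1736 miRNAs at 10 counts or more in both libraries, 62.7% were higher and 5.13% lower by the interval. By Fisher's test 60.5% were higher and 4.84% lower. At 1.5-fold with TMM, 3 were lower, as were 19.5% of all miRNAs. The median log2 ratio of the members changed from 0.32 to 0.059 with the median of ratios, 0.11 relative to miR-148a-3p and -0.53 with TMM. With TMM the ratios were 0.686 (miR-191-5p), 0.712 (miR-191-3p), 0.619 (miR-425-5p), 0.713 (miR-425-3p), 0.699 (miR-423-5p) and 0.726 (miR-423-3p), all above 1 as deposited. The ratio of miR-425-5p also crossed 1 with the median of ratios (0.9303), relative to miR-148a-3p (0.961), and, as settings added after the data were seen, relative to miR-191-5p (0.902), miR-423-5p (0.885) and the geometric mean of the 4 5p arms (0.986). Relative to miR-423-5p the ratio of miR-191-5p was 0.982. A scaling moves all miRNAs by the same factor. The 8 arm shares stayed within their intervals with 10 counts added to each arm.

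Over all miRNAs, 1225 were past 1.5-fold higher and 56 (3.03%) past 1.5-fold lower in the library labelled iFIRKO, and exchanged labels would swap these directions. The higher ones were 388 with TMM, 794 at 2-fold and 145 at mean counts of 100 or more. The lower ones were 360 with TMM, 113 with the median of ratios, 102 relative to miR-148a-3p, 89 by the counting interval, 84 by Fisher's test, 22 with floor entries at 10 counts, and 24 and 18 at mean counts from 10 and from 100 upward. Relative to the members as references they were 2.65% (miR-185-5p) to 6.82% (miR-423-5p) of all miRNAs. TMM moved the higher share of calls from 95.6% to 51.9%, and the median log2 ratio from 0.88 to 0.029.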
